A study of Mus musculus with 22 samples.

Results

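The MHC class II presentation genes of brown adipose tissue (BAT) were followed in bulk RNA-seq libraries as 9 genes: H2-Aa, H2-Ab1, H2-Eb1, H2-DMa, H2-DMb1, H2-Oa, H2-Ob, Cd74 and Ciita. They were chosen by name, not by a threshold on measured values, and were found in both deposited tables of gene counts through their Ensembl identifiers and GENCODE symbols. They are 9 of 55487 gene identifiers. All 9 passed the filter on low counts, among 17869 genes in the untreated mice and 18899 genes in the virus-injected mice.

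Class II molecules carry peptides from engulfed proteins to the cell surface and show them to CD4+ T cells. H2-Aa and H2-Ab1 encode the alpha and beta chains of the surface molecule I-A. H2-Eb1 encodes the beta chain of I-E, whose alpha chain, H2-Ea, is not expressed in C57BL/6 mice. Cd74 encodes the invariant chain, which fills the peptide groove and steers new class II molecules to endosomes. H2-DMa and H2-DMb1 form H2-DM, which swaps the remnant of the invariant chain for peptide, and H2-Oa and H2-Ob form H2-DO, which restrains H2-DM. Ciita encodes the coactivator that switches these genes on through the RFX, CREB and NF-Y factors at their promoters. Dendritic cells, macrophages and B cells are the usual sources of class II transcripts in a tissue, and interferon gamma can induce them in other cells.

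The mice formed 2 cohorts, with 1 library per mouse. The first held untreated CPEB2-WT mice (n = 5) and whole-body CPEB2-KO mice (n = 5) aged 21 to 25 weeks, and CPEB2 is an RNA-binding protein that controls translation. The second held WT and KO mice of 25 weeks by the labels, from which the age given in the study's text differs, whose interscapular BAT had received, at 16 weeks, an adeno-associated virus (AAV) for GFP or for flag-tagged PRDM16, a transcription factor that maintains brown fat identity (n = 3 for each virus in each genotype, written as WT + AAV-GFP and so on). Each injected mouse received 20000000000 vector genomes in 30 µl, at 10 µl per site, and BAT was taken 9 weeks later. All mice were labelled C57BL/6 males on chow with 9% fat. The promoter that drives the transgenes is not given in the sources used here, and the tissue was whole BAT, so every cell type in it contributed RNA.

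Library totals were 55320927 to 162721202 counts for untreated mice and 61636889 to 143005309 for injected mice. Cpeb2 stood at 7.70 to 14.3 CPM (counts scaled to library size) in the untreated WT libraries and at 2.11 to 5.78 CPM in 4 of the 5 KO libraries, while the library labelled KO mouse 1 held 11.7 CPM, inside the WT range. In the AAV cohort Cpeb2 did not overlap between genotypes, at 10.5 to 13.96 CPM in WT and 4.33 to 5.55 CPM in KO. Prdm16 stood at 23.9 to 40.2 CPM with AAV-GFP and 45.9 to 128 CPM with AAV-PRDM16. Against the labels, 6 of the 10 untreated libraries (2 WT and 4 KO) held over 100 CPM of Xist and at most 1.17 CPM of Y-linked transcripts, and untreated results are also given for those 6 alone. The brown adipocyte markers Ucp1, Cidea, Cox7a1, Adipoq, Plin1, Fabp4 and Ppargc1a summed to 7044 to 19150 CPM in every library.

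Of the 9 genes, 7 lie in the class II region of chromosome 17 (GRCm38, GENCODE gene models, 1-based). H2-Oa (ENSMUSG00000024334) spans chr17:34092340-34095234, H2-DMa (ENSMUSG00000037649) chr17:34119541-34139101 and H2-DMb1 (ENSMUSG00000079547) chr17:34153072-34160230, all on the plus strand. H2-Ob (ENSMUSG00000041538) spans chr17:34238903-34254414 and H2-Ab1 (ENSMUSG00000073421) chr17:34257689-34269419 on the plus strand, followed by H2-Aa (ENSMUSG00000036594) at chr17:34282744-34287823 on the minus strand and H2-Eb1 (ENSMUSG00000060586) at chr17:34305867-34316674 on the plus strand. Cd74 (ENSMUSG00000024610) lies at chr18:60803848-60812652 and Ciita (ENSMUSG00000022504) at chr16:10480059-10528418, both on the plus strand. Exons of H2-Oa share 321 bases (22.8% of its exonic length) with the antisense gene BC051537, those of H2-DMa share 360 bases (10.4%) with Brd2 on the opposite strand and those of Ciita share 329 bases (3.45%) with Dexi on the opposite strand. The strand setting of the counting is not given in the sources used here, so reads in those stretches could belong to either gene. H2-DMb1 and its neighbour H2-DMb2 had 369 of 1629 windows of 50 bases in common (22.7%), which leaves the split of reads between them uncertain.

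Per kilobase of exon, the class II chains and their chaperone stood far above the editors of peptide loading. Cd74 had the highest level in each cohort, with a mean of 68.9 CPM per kb over the 10 untreated libraries and 53.0 CPM per kb over the 12 AAV libraries. H2-Eb1 followed at 25.0 and 19.7 CPM per kb, H2-Ab1 at 20.5 and 13.4 CPM per kb and H2-Aa at 10.8 and 10.5 CPM per kb. The order Cd74, H2-Eb1, H2-Ab1 held in 22 of 22 libraries, and H2-Ab1 lay above H2-Aa in 21 of 22. This order depends on the length used, which joins the exons of all listed transcripts: 3798 bases for H2-Aa and 2568 for H2-Ab1. In CPM, without that scaling, the ratio of H2-Ab1 to H2-Aa was 1.12 to 1.54 in untreated libraries and 0.667 to 1.03 in AAV libraries. The H2-DM pair came next, with H2-DMb1 at 3.16 and 1.97 CPM per kb and H2-DMa at 1.18 and 0.866 CPM per kb, in that order in 21 of 22 libraries. Ciita at 0.161 and 0.276 CPM per kb, H2-Oa at 0.154 and 0.100 CPM per kb and H2-Ob at 0.0946 and 0.0702 CPM per kb closed the order. Ciita lay above H2-Oa, and H2-Oa above H2-Ob, in 16 of 22 libraries each, so the order of these last genes changed from mouse to mouse.

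**Figure D1:**
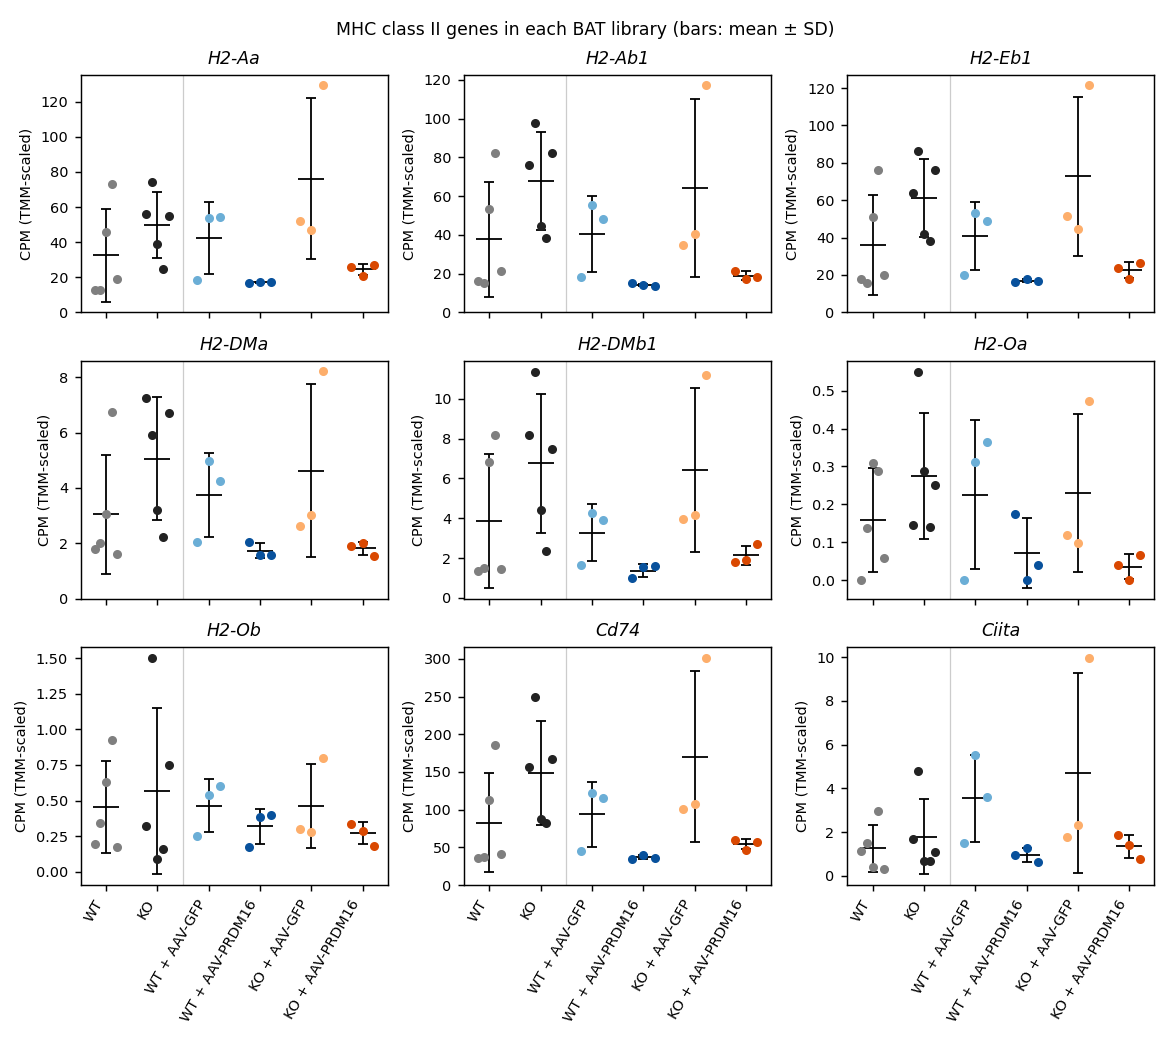
Level of each of the 9 genes in CPM (vertical axes) in each of the 22 libraries, by group (horizontal axis), with 1 point per mouse and the mean ± SD of each group. Groups of untreated mice and the AAV-GFP groups are widely spread, while the AAV-PRDM16 groups are tight: Cd74 lies between 35.2 and 40.1 CPM in WT + AAV-PRDM16 and between 46.8 and 59.3 CPM in KO + AAV-PRDM16.

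The first comparison asked whether loss of CPEB2 alone went with another level of class II transcripts in BAT. All 9 genes had higher fitted levels in CPEB2-KO than in CPEB2-WT BATs, with a median log2 fold change of 0.77 against 0.036 over all genes tested, but no gene passed the test and the groups overlapped for every gene. In whole tissue, a different number of cells that carry class II molecules and a different amount of class II RNA per cell cannot be told apart. Cd74 stood at 36.3, 37.8, 113, 185 and 41.2 CPM in WT mice 1 to 5 and at 156, 249.9, 88.2, 82.1 and 168 CPM in KO mice 1 to 5. WT mice 1, 2 and 5 were low, while WT mice 3 and 4 lay within the KO range. The log2 fold change of Cd74 was 0.85 ± 0.50 (SE), with an adjusted p of 0.376 in the edgeR quasi-likelihood test.

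The class II chains showed the same mice high and low. H2-Aa stood at 12.5, 12.7, 45.8, 73.2 and 18.7 CPM in WT mice 1 to 5 and at 55.8, 74.1, 38.8, 24.8 and 54.7 CPM in KO mice 1 to 5, with a log2 fold change of 0.61 ± 0.49 (adjusted p = 0.497, edgeR). H2-Ab1 stood at 16.2, 15.1, 53.3, 82.3 and 21.2 CPM in WT and at 76.1, 97.8, 44.7, 38.1 and 82.3 CPM in KO, with a log2 fold change of 0.85 ± 0.48 (adjusted p = 0.363, edgeR). H2-Eb1 stood at 17.6, 15.4, 51.1, 75.9 and 20.0 CPM in WT and at 63.8, 86.3, 41.9, 38.2 and 75.9 CPM in KO, with a log2 fold change of 0.77 ± 0.45 (adjusted p = 0.377, edgeR). For all 3 chains WT mice 1, 2 and 5 lay below every KO mouse, and WT mice 3 and 4 did not.

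The peptide editors and the coactivator were more scattered, apart from H2-DMa. Their SD of log2 CPM over the untreated libraries was 1.19 to 1.36, against 0.93 to 1.02 for the chains and Cd74, and 0.86 for H2-DMa. H2-DMb1 stood at 1.34, 1.51, 6.83, 8.19 and 1.47 CPM in WT mice 1 to 5 and at 8.16, 11.4, 4.44, 2.34 and 7.49 CPM in KO mice 1 to 5, a log2 fold change of 0.81 ± 0.59 (adjusted p = 0.458, edgeR). H2-DMa stood at 1.80, 2.03, 3.05, 6.75 and 1.61 CPM in WT and at 7.24, 5.92, 3.20, 2.22 and 6.70 CPM in KO, a log2 fold change of 0.73 ± 0.46 (adjusted p = 0.400, edgeR). Both H2-DM genes were again lowest in WT mice 1, 2 and 5. Ciita stood at 1.13, 1.52, 0.397, 2.98 and 0.326 CPM in WT and at 1.69, 4.78, 0.692, 0.695 and 1.12 CPM in KO, a log2 fold change of 0.50 ± 0.69 (adjusted p = 0.698, edgeR). WT mouse 3 thus had more H2-Aa than WT mice 1 and 2 but less Ciita. H2-Ob ranged over 0.173 to 0.927 CPM among WT mice and 0.0922 to 1.501 CPM among KO mice. H2-Oa ranged over 0 to 0.308 CPM (0 to 37 counts) among WT mice and 0.139 to 0.551 CPM (7 to 55 counts) among KO mice, and the 0 in WT mouse 1 allows up to 0.0263 CPM. The groups of both H2-DO genes overlapped, with adjusted p of 0.824 and 0.616 (edgeR).

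At FDR 0.05 edgeR called 0 of the 9 genes between untreated genotypes, and 0% of all genes tested. At an unadjusted p under 0.05 it also called 0 of 9, against 4.99% of all genes in that direction. At FDR 0.05 DESeq2 called 0 of 9 and 1 gene in all, and limma-voom called 0 of 9 and 0 genes in all. A positive fold change, shown by 9 of 9, was shown by 51.8% of all genes. None of the 9 had all KO libraries above all WT libraries, which 0.492% of all genes did. The 6 libraries with over 100 CPM of Xist (2 WT and 4 KO) include KO mouse 1, whose Cpeb2 lay inside the WT range. In these 6, an alternative chosen after the data were seen, the median log2 fold change of the 9 genes was 0.65. Without WT mice 1 and 2, which held the most Y-linked transcripts, it was 0.38, and without the library labelled KO mouse 1 it was 0.73. Without WT mouse 4 it was 1.23, and by limma-voom with quality weights it was 0.39.

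The libraries moved far more than the genotypes did, and they moved for several of these genes at once. KO mouse 2 held the highest level of 8 of the 9 genes among the untreated libraries (of all but H2-DMa, highest in KO mouse 1), and KO + AAV-GFP mouse 3 held the highest level of 9 of 9 in the AAV cohort. From the lowest to the highest library Cd74 spanned 6.89-fold among untreated and 8.56-fold among AAV libraries. Against H2-Aa the class II chains and Cd74 hardly moved: the ratio of Cd74 to H2-Aa in CPM stayed between 2.2 and 3.37 over untreated libraries and between 1.94 and 2.43 over AAV libraries. The SD of that log2 ratio was 0.22 and 0.092, against an SD of 0.98 and 0.94 for the log2 level of H2-Aa itself. The ratio of H2-Eb1 to H2-Aa had an SD of 0.19 and 0.089, and that of H2-Ab1 to H2-Aa 0.17 and 0.18.

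The ratios of the remaining genes to H2-Aa varied more, apart from H2-Oa, for which no ratio was taken because it was at 0 in some libraries and whose log2 level had an SD of 1.36 (untreated) and 1.69 (AAV). The SD of the log2 ratio to H2-Aa was 0.31 (untreated) and 0.21 (AAV) for H2-DMb1, 0.42 and 0.40 for H2-DMa, 1.02 and 0.69 for H2-Ob, and 1.18 and 0.56 for Ciita. The ratio of Ciita to H2-Aa was lowest in WT mouse 3, at 0.00867, and highest in WT mouse 2, at 0.120 by CPM. The libraries of a cohort share the scaling by library size, and CPM ratios within a library do not depend on it.

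**Figure D2:**
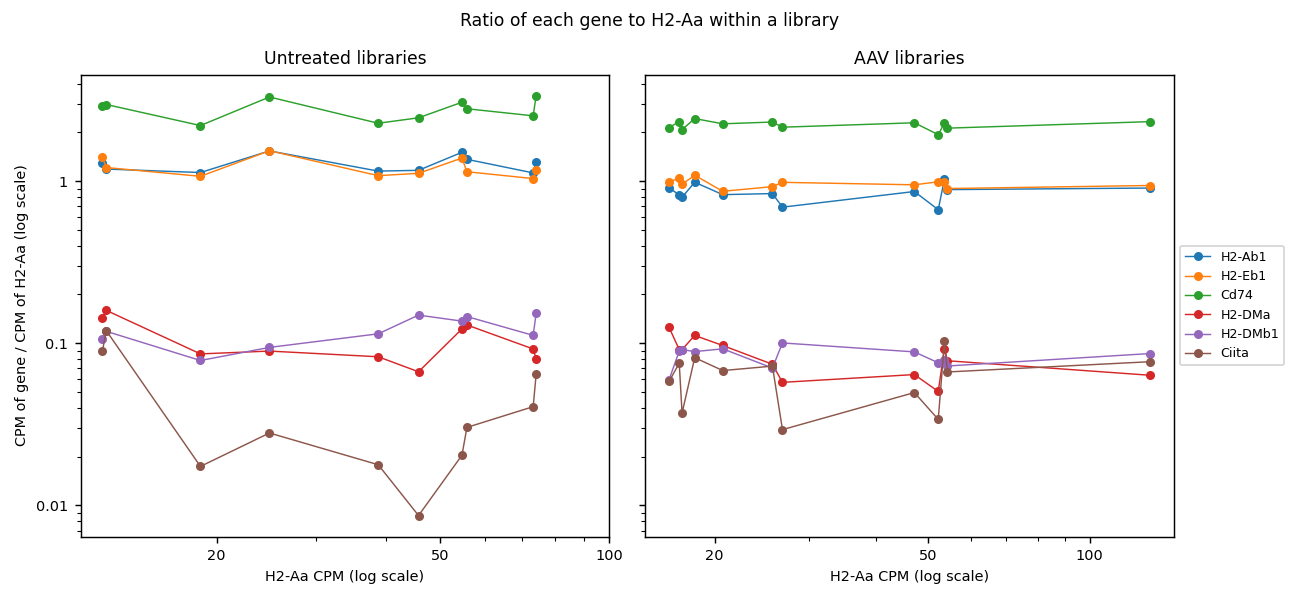
Ratio of H2-Ab1, H2-Eb1, Cd74, H2-DMa, H2-DMb1 and Ciita to H2-Aa in CPM (vertical axes, log scale) against the level of H2-Aa in CPM (horizontal axes, log scale). There is 1 panel per cohort and 1 point per library for each gene, coloured by gene. Cd74, H2-Ab1 and H2-Eb1 form nearly level bands, and the points of Ciita scatter, with the ratio of Ciita to H2-Aa between 0.00867 and 0.120 in the untreated libraries.

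The second question was whether PRDM16 delivered to BAT went with a change of class II transcripts, in each genotype. In WT BATs all 9 genes had lower fitted levels with AAV-PRDM16 than with AAV-GFP, with a median log2 fold change of -1.31 against -0.012 over all genes, and none passed FDR 0.05. Cd74 stood at 44.6, 123 and 115 CPM in WT + AAV-GFP mice 1 to 3 and at 35.2, 40.1 and 36.1 CPM in WT + AAV-PRDM16. All 3 AAV-PRDM16 libraries were lower than all 3 AAV-GFP libraries, although AAV-GFP mouse 1 lay close to them. The log2 fold change was -1.34 ± 0.42 (adjusted p = 0.480, edgeR).

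The 3 class II chains gave the same picture in WT BATs. H2-Aa stood at 18.4, 53.6 and 54.3 CPM with AAV-GFP and at 16.5, 17.2 and 17.4 CPM with AAV-PRDM16, a log2 fold change of -1.31 ± 0.41 (adjusted p = 0.480, edgeR). H2-Ab1 stood at 18.1, 55.2 and 48.2 CPM with AAV-GFP and at 14.9, 14.1 and 13.8 CPM with AAV-PRDM16, a log2 fold change of -1.503 ± 0.45 (adjusted p = 0.468, edgeR). H2-Eb1 stood at 20.0, 53.2 and 48.9 CPM with AAV-GFP and at 16.3, 17.9 and 16.6 CPM with AAV-PRDM16, a log2 fold change of -1.27 ± 0.39 (adjusted p = 0.477, edgeR). In each case the groups did not overlap and AAV-GFP mouse 1 stood nearest to the AAV-PRDM16 mice.

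Among the editors and the coactivator, H2-DMb1 stood at 1.63, 4.26 and 3.94 CPM with AAV-GFP and at 0.983, 1.54 and 1.59 CPM with AAV-PRDM16 in WT BATs (log2 fold change -1.26 ± 0.44, adjusted p = 0.527, edgeR). H2-DMa stood at 2.05, 4.98 and 4.24 CPM and at 2.06, 1.57 and 1.59 CPM (log2 fold change -1.11 ± 0.42, adjusted p = 0.564, edgeR). Ciita stood at 1.497, 5.51 and 3.62 CPM and at 0.959, 1.29 and 0.646 CPM (log2 fold change -1.88 ± 0.65, adjusted p = 0.524, edgeR). H2-DMb1 and Ciita did not overlap between the viruses, and H2-DMa overlapped by 1 library. H2-Ob stood at 0.251, 0.542 and 0.602 CPM and at 0.176, 0.387 and 0.395 CPM, and H2-Oa at 0, 0.312 and 0.366 CPM and at 0.176, 0 and 0.0386 CPM. Both H2-DO genes overlapped between the viruses. The 0 in WT + AAV-GFP mouse 1 allows up to 0.0269 CPM and that in WT + AAV-PRDM16 mouse 2 up to 0.0332 CPM (3 counts, counting error only).

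In WT BATs edgeR called 0 of 9 genes at FDR 0.05, as it called 0% of all genes, while 7 of 9 had an unadjusted p under 0.05 on the lower side, against 5.19% of all genes. DESeq2 called 0 of 9, against 0.708% of the genes it tested, and limma-voom called 0 of 9 and 1 gene in all. A negative fold change was shown by 9 of 9 and by 52.1% of all genes, and libraries lower without overlap by 6 of 9 and by 7.76% of all genes. At the looser threshold of the study's own screen (2-fold and FDR 0.5), 4 of 9 passed, against 1.31% of all genes.

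In KO BATs the differences were of the same sign. Cd74 stood at 101, 108 and 301 CPM in KO + AAV-GFP mice 1 to 3 and at 59.3, 46.8 and 57.6 CPM in KO + AAV-PRDM16. H2-Aa stood at 52.2, 47.1 and 129 CPM and at 25.6, 20.7 and 26.8 CPM, H2-Ab1 at 34.8, 40.7 and 117 CPM and at 21.5, 17.1 and 18.5 CPM, and H2-Eb1 at 51.7, 44.8 and 122 CPM and at 23.7, 17.9 and 26.3 CPM. None of these 4 genes overlapped between the viruses, and KO + AAV-GFP mouse 3 stood above both of its group mates. Their log2 fold changes were -1.64 ± 0.42 for Cd74, -1.65 ± 0.41 for H2-Aa, -1.76 ± 0.45 for H2-Ab1 and -1.69 ± 0.39 for H2-Eb1, with adjusted p of 0.307 to 0.310 (edgeR). With DESeq2 the adjusted p was 0.0367 for H2-Aa, 0.0492 for H2-Ab1, 0.00138 for H2-Eb1 and 0.0511 for Cd74.

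The H2-DM genes followed in KO BATs. H2-DMb1 stood at 3.96, 4.17 and 11.2 CPM with AAV-GFP and at 1.80, 1.92 and 2.69 CPM with AAV-PRDM16 (log2 fold change -1.60 ± 0.44, adjusted p = 0.329 in edgeR and 0.024 in DESeq2). H2-DMa stood at 2.64, 3.02 and 8.22 CPM and at 1.90, 2.01 and 1.54 CPM (log2 fold change -1.35 ± 0.42, adjusted p = 0.400, edgeR). Neither overlapped between the viruses. Ciita stood at 1.77, 2.34 and 9.96 CPM and at 1.85, 1.41 and 0.785 CPM, H2-Ob at 0.298, 0.278 and 0.799 CPM and at 0.337, 0.287 and 0.184 CPM, and H2-Oa at 0.119, 0.0987 and 0.472 CPM and at 0.0397, 0 and 0.0668 CPM. Ciita and H2-Ob overlapped, and H2-Oa did not but rested on 8, 11 and 68 counts against 4, 0 and 4.

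In KO BATs edgeR called 0 of 9 genes at FDR 0.05 and 0% of all genes, and 7 of 9 had an unadjusted p under 0.05 on the lower side, against 5.1% of all genes. DESeq2 called 4 of 9 lower (H2-Aa, H2-Ab1, H2-Eb1 and H2-DMb1), against 1.15% of the genes it tested. Limma-voom called 0 of 9 and 0 genes in all. A negative fold change was shown by 9 of 9 and 51.5% of all genes, libraries lower without overlap by 7 of 9 and 6.05%, and 2-fold with FDR 0.5 by 6 of 9 and 2.03%. The median log2 fold change was -1.65 against -0.0066 over all genes. Without KO + AAV-GFP mouse 3 it was -0.94.

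With both genotypes averaged, the contrast of the viruses rested on 6 libraries against 6. The median log2 fold change of the 9 genes was -1.48, against -0.0067 over all genes, and all 9 values were negative, as were 51.6% of all genes. The log2 fold changes were -1.48 ± 0.28 for H2-Eb1 (adjusted p = 0.0527), -1.63 ± 0.32 for H2-Ab1, -1.48 ± 0.29 for H2-Aa and -1.49 ± 0.30 for Cd74 (adjusted p = 0.0543 for these 3), all by edgeR. H2-DMb1 had -1.43 ± 0.31 (adjusted p = 0.0644), H2-DMa -1.23 ± 0.30 (0.0886 adjusted) and Ciita -1.84 ± 0.46 (0.0944 adjusted) in the same fit. H2-Oa and H2-Ob had -2.23 ± 1.07 and -0.65 ± 0.39, with adjusted p of 0.592 and 0.737.

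The averaged contrast lay at the threshold, and its calls turned on the tool and on single libraries. EdgeR called 0 of 9 at FDR 0.05, against 0.037% of all genes, and 7 of 9 (all but the H2-DO genes) at an unadjusted p under 0.05, against 7.02% on the lower side. DESeq2 called the same 7 genes lower at FDR 0.05, with adjusted p from 3.05e-06 for H2-Eb1 to 0.00203 for H2-DMa, against 2.71% of the genes it tested. Limma-voom called 0 of 9 and 8 genes in all. At 2-fold and FDR 0.5, 7 of 9 passed, against 4.24% of all genes. Without WT + AAV-GFP mouse 1, the AAV-GFP library with the lowest class II levels, edgeR called 7 of 9 and its count over all genes went from 7 to 352. Without KO + AAV-GFP mouse 1 it called 6 of 9 and 211 genes in all. Without KO + AAV-GFP mouse 3 it called 0, and the median log2 fold change was -1.17.

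**Figure D3:**
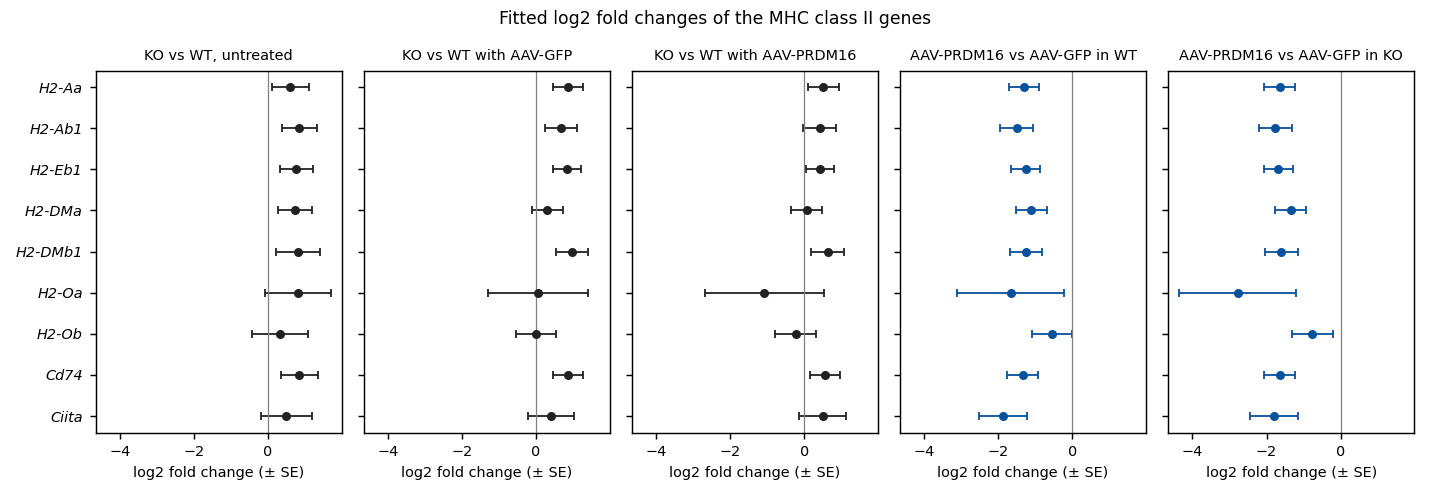
Log2 fold change ± SE of each of the 9 genes (vertical axis) in 5 comparisons (panels), from the edgeR fit of each cohort. Values for KO against WT range from -1.07 to 0.98, and those for AAV-PRDM16 against AAV-GFP lie below 0 in each genotype, between -0.54 and -1.88 in WT and between -0.77 and -2.78 in KO.

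Between genotypes under the same virus, the differences were smaller. With AAV-GFP, 8 of the 9 genes had a higher fitted level in KO than in WT, against 51.5% of all genes, with a median log2 fold change of 0.67 against 0.010. H2-DMb1 had 0.98 ± 0.43 (adjusted p = 0.530), H2-Aa 0.86 ± 0.40 (0.560 adjusted), Cd74 0.85 ± 0.41 (0.576 adjusted) and H2-Eb1 0.84 ± 0.38 (0.543 adjusted) by edgeR. Every gene overlapped between the genotypes, so 0 of 9 were higher without overlap, against 6.51% of all genes. EdgeR called 0 of 9 at FDR 0.05, against 0.0529% of all genes, and 2 of 9 (H2-Eb1 and H2-DMb1) at an unadjusted p under 0.05, against 4.98%. DESeq2 called 0 of the 8 genes of the set that it tested (all but H2-Oa), against 0.848% of its genes higher and 0.755% lower. Limma-voom called 0 of 9 and 12 genes in all. Without KO + AAV-GFP mouse 3 the median turned to -0.10, and without WT + AAV-GFP mouse 1 it was 0.32. By limma-voom with quality weights it was 0.30.

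With AAV-PRDM16, KO libraries lay above WT libraries by small steps for 5 of the 9 genes. The lowest KO library exceeded the highest WT library for H2-Aa, H2-Ab1, H2-Eb1, H2-DMb1 and Cd74, as 20.7 against 17.4 CPM for H2-Aa and 46.8 against 40.1 CPM for Cd74. These 5 of 9 compare with 11.5% of all genes. The log2 fold changes were 0.52 ± 0.41 for H2-Aa, 0.56 ± 0.41 for Cd74, 0.63 ± 0.44 for H2-DMb1, 0.41 ± 0.44 for H2-Ab1 and 0.42 ± 0.39 for H2-Eb1, with adjusted p of 0.569 to 0.738 (edgeR). In all, 7 of 9 values were positive, against 51.4% of all genes, with a median of 0.42 against 0.010. EdgeR called 0 of 9 at FDR 0.05, against 0.0476% of all genes, and 0 of 9 at an unadjusted p under 0.05, against 6.92% on the higher side. DESeq2 called 0 of 9, against 1.67% of the genes it tested higher and 1.59% lower. Limma-voom called 0 of 9 and 582 genes in all. The other genes overlapped between the genotypes, with log2 fold changes of 0.49 ± 0.64 for Ciita, 0.066 ± 0.42 for H2-DMa, -0.24 ± 0.55 for H2-Ob and -1.07 ± 1.60 for H2-Oa. H2-Oa rested on 4, 0 and 4 counts in KO.

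Averaged over the viruses, the genotype contrast gave a median log2 fold change of 0.54 for the 9 genes, with 7 of 9 positive, against 51.6% of all genes. EdgeR called 0 of 9, against 2.18% of all genes, and 4 of 9 (H2-Aa, H2-Eb1, H2-DMb1 and Cd74) at an unadjusted p under 0.05, against 9.54% on the higher side. DESeq2 called 0 of the 8 genes of the set that it tested (all but H2-Oa), against 5.18% of its genes higher and 4.64% lower. Limma-voom called 0 of 9, against 1281 genes in all. Without KO + AAV-GFP mouse 3 the median was 0.15. The interaction, which asks whether the difference between viruses changed with genotype, was called for 0 of 9 genes and 0% of all genes, with an adjusted p of 1 for each gene and 0 of 9 at an unadjusted p under 0.05 (1.59% of all genes on the higher and 1.6% on the lower side). DESeq2 also called 0 of 9 for the interaction and 1 gene in all, and limma-voom 0 of 9 and 0 in all. The interaction was negative for 8 of 9 genes, against 50.3% of all genes, with a median of -0.30 on the log2 scale that turned to 0.40 without KO + AAV-GFP mouse 3. For H2-Aa it was -0.34 ± 0.57.

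KO BATs with AAV-PRDM16 were also set against WT BATs with AAV-GFP, which is the comparison of treated mutants with control mice. All 9 values were negative, against 52.6% of all genes, with a median log2 fold change of -0.85 against -0.016. H2-DMa, at -1.05 ± 0.42 (adjusted p = 0.576, edgeR), was the only gene of the 9 without overlap, against 7.09% of all genes, since WT + AAV-GFP mouse 1 lay within the KO + AAV-PRDM16 range or below it for the others. EdgeR called 0 of 9 at FDR 0.05 against 0.00529% of all genes and 3 of 9 at an unadjusted p under 0.05 against 4.42%. DESeq2 called 0 of 9, against 0.396% of the genes it tested lower, and limma-voom called 0 of 9 and 1 gene in all. This contrast shares its WT + AAV-GFP libraries with the contrast of viruses in WT, and its KO + AAV-PRDM16 libraries with that in KO.

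The machinery around the class II genes was read through fixed lists, in the averaged contrast of viruses. Over all genes tested in that contrast edgeR called 0.037% at FDR 0.05, and 7.02% were lower at an unadjusted p under 0.05. The regulators Rfx5, Rfxank, Rfxap, Creb1, Nfya, Nfyb and Nfyc, which bind the promoters with Ciita, had 0 of 7 called by edgeR and 0 at an unadjusted p under 0.05, with a median log2 fold change of 0.033. Rfx5, at 8.87 ± 1.01 and 7.73 ± 1.33 CPM in WT with AAV-GFP and AAV-PRDM16 (SD, n = 3), had -0.17 ± 0.12. Of 9 genes of antigen processing 0 were called and 3 had an unadjusted p under 0.05, all lower, with a list median of 0.0056. Ctsl, a protease of endosomes, stood at 61.2 ± 9.05 and 63.8 ± 5.28 CPM in WT, and had 0.0062 ± 0.078. The values of Ctss, the protease that trims the invariant chain, and Ifi30, which reduces disulphides of antigens, are named here after they were seen: -2.17 ± 0.45 (adjusted p = 0.0586, edgeR) and -1.14 ± 0.29 (adjusted p = 0.108, edgeR). In the interferon gamma list 1 of 8 was called, Irf1, a transcription factor induced by interferon, lower at -0.61 ± 0.083 (adjusted p = 0.0453, edgeR). Irf1 stood at 26.8 ± 2.45 and 15.2 ± 0.316 CPM in WT, and at 24.0 ± 3.27 and 18.0 ± 1.67 CPM in KO, with AAV-GFP and AAV-PRDM16.

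Costimulation genes, whose products are shown to T cells beside class II molecules, had 0 of 5 called. Of these 5, 4 were lower at an unadjusted p under 0.05, against 7.02% of all genes, with a list median of -1.17. Cd86 stood at 1.31 ± 0.164 CPM with AAV-GFP and 0.655 ± 0.155 CPM with AAV-PRDM16 in WT, and at 2.42 ± 0.833 and 0.957 ± 0.237 CPM in KO, a log2 fold change of -1.17 ± 0.22 over both (adjusted p = 0.0527, edgeR). Cd274, which dampens T cells and was the most abundant gene of the list, had -0.084 ± 0.11 (adjusted p = 0.950, edgeR). Of the other class II loci, H2-DMb2 had -1.94 ± 0.68 and H2-Eb2 -2.73 ± 1.06, with 0 of 2 called and both at an unadjusted p under 0.05, and H2-Ea was listed at 0 in every library. H2-Eb2 averaged 0.0800 CPM over the 22 libraries.

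Markers of cells that carry class II molecules were summed beside the 9 genes. Macrophage markers (Adgre1, Csf1r, Cd68, Mrc1, C1qa, C1qb and Mertk, all above 0 in every library) summed to 38.0 to 64.0 CPM in WT + AAV-GFP and 27.2 to 33.5 CPM in WT + AAV-PRDM16, and to 76.3 to 195 and 51.6 to 58.8 CPM in KO. In the averaged contrast 0 of 7 were called and 6 of 7 were lower at an unadjusted p under 0.05, against 7.02% of all genes, with a median log2 fold change of -0.88. Dendritic cell markers (Itgax, Flt3, Zbtb46, Xcr1, Clec9a, Cd209a and Ccr7) summed to 20.8 to 23.4 CPM and 13.9 to 15.7 CPM in WT, and to 18.9 to 40.7 and 15.5 to 21.3 CPM in KO, with Zbtb46 the most abundant of the list. They had 0 of 7 called and 6 of 7 at an unadjusted p under 0.05, against 7.02% of all genes on the lower side, with a median of -2.004. Zbtb46 itself had -0.17 ± 0.14 (adjusted p = 0.868, edgeR). WT + AAV-PRDM16 libraries each had 1 of the 7 dendritic markers at 0.

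T cell markers (Cd3e, Cd3d, Cd3g, Cd4, Cd8a and Trac) summed to 1.35, 16.5 and 9.29 CPM in WT + AAV-GFP mice 1 to 3 and to 0.874 to 1.33 CPM in WT + AAV-PRDM16, and to 6.48 to 23.4 and 0.426 to 1.89 CPM in KO. WT + AAV-GFP mouse 1, low in class II transcripts, was also the AAV-GFP mouse low in T cell markers, and KO + AAV-GFP mouse 3 was the highest in both. Of these markers 0 of 6 were called and 6 of 6 were lower at an unadjusted p under 0.05, against 7.02% of all genes, with a median of -3.11. Stroma of lymph nodes (Ccl21a, Ccl19, Cxcl13, Cr2 and Madcam1) summed to at most 2.39 CPM, with 0 of 2 tested called and a median of -0.15. Brown adipocyte markers had 0 of 7 called and a median of 0.093. The part of these cell types in the class II values was not tested.

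Between untreated genotypes the same lists had no gene called. Macrophage markers summed to 32.4, 34.5, 67.9, 152 and 45.1 CPM in WT mice 1 to 5 and to 215, 162.8, 46.4, 51.8 and 76.0 CPM in KO mice 1 to 5. Their median log2 fold change was 0.73, with 0 of 7 at an unadjusted p under 0.05, against 4.99% of all genes on the higher side. The 9 class II genes summed to 87.0, 86.6, 274, 436 and 105 CPM in WT and to 369, 532, 222, 189 and 397 CPM in KO. WT mice 1, 2 and 5 were the lowest of the 10 in both sums, while KO mouse 1 was the highest in macrophage markers and KO mouse 2 in class II genes. With AAV-GFP, all 7 macrophage markers were higher in KO than in WT at an unadjusted p under 0.05, against 4.98% of all genes, with a median log2 fold change of 1.08. With AAV-PRDM16 6 of 7 were, against 6.92% of all genes, with a median of 0.87. None of the 7 was called at FDR 0.05 with either virus.

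**Figure D4:**
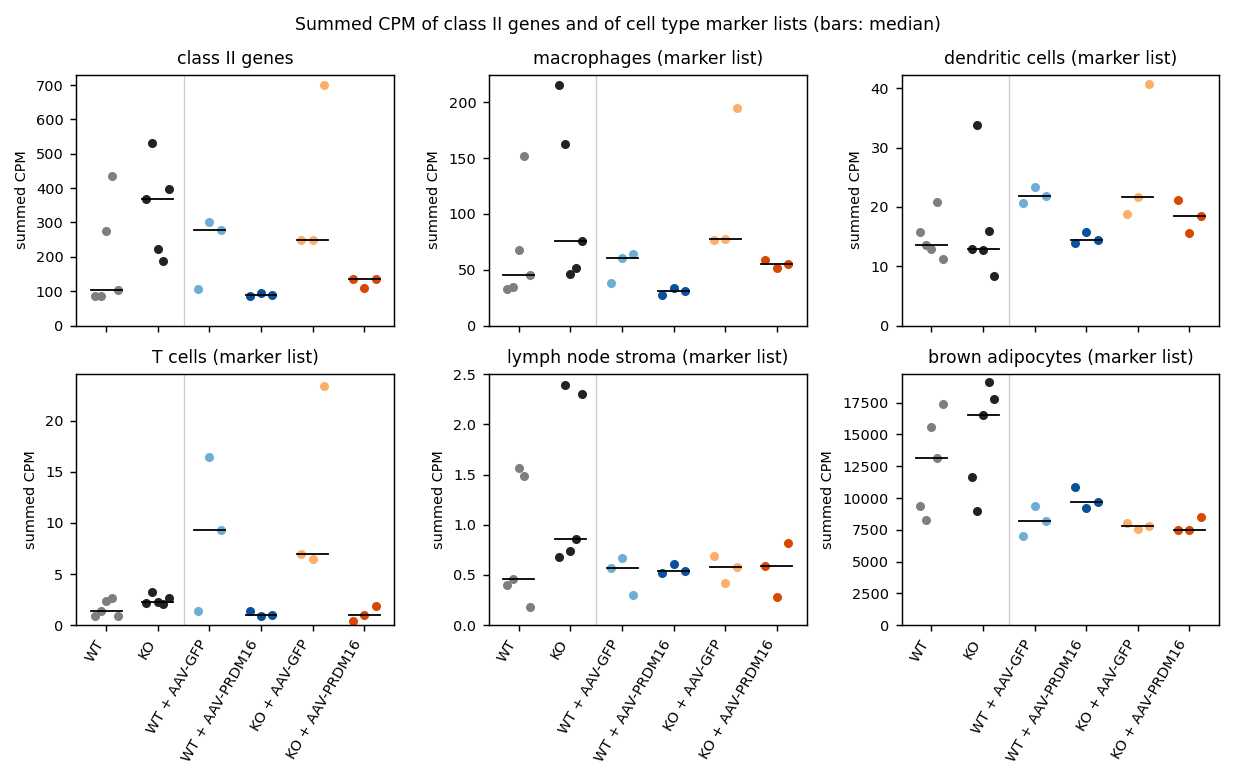
Summed CPM (vertical axes) of the 9 class II genes and of the marker lists of macrophages, dendritic cells, T cells, lymph node stroma and brown adipocytes in each library, by group (horizontal axis), with a bar at the group median. KO + AAV-GFP mouse 3 is highest of the AAV libraries in the class II, macrophage, dendritic and T cell sums, at 700.1, 195, 40.7 and 23.4 CPM.

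The class II promoters are textbook targets of the factors that work with Ciita: RFX binds the X box and NF-Y the Y box. RefSeq promoter sequences (GRCm38.p6, 250 bases before each start) were listed for 6 of the 9 genes, namely H2-Aa, H2-Eb1, H2-DMa, H2-DMb1, H2-Oa and H2-Ob. Both boxes were looked for on both strands, as TGATTGG for the Y box, whose reverse complement holds CCAAT, and AACNNATG for the X box. These letters were chosen after the sequences were looked at. Stretches of 60 bases are shown for 4 of the 5 genes with the Y box letters. The shared letters can thus be seen beside the changing bases around them. The stretch of H2-DMb1 is left out because too many of its bases lie in an annotated exon of the gene. Only stretches that match these exact letters are in capitals.
H2-Aa, chr17:34287859-34287918, minus strand: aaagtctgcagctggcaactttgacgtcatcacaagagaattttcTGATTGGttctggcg
H2-Eb1, chr17:34305761-34305820, plus strand: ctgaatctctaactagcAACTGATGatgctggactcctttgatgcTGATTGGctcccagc
H2-Oa, chr17:34092289-34092348, plus strand: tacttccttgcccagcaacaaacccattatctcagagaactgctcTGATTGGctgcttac
H2-Ob, chr17:34238801-34238860, plus strand: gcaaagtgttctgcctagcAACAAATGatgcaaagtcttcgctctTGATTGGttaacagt

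The Y box letters stood in the promoters of 5 of the 6 genes, beginning 50 bases upstream of the start for H2-Aa, 61 for H2-Eb1, 63 for H2-DMb1, 59 for H2-Ob and 45 for H2-Oa. The X box letters stood in 3 of the 6, beginning 89 bases upstream for H2-Eb1, 92 for H2-DMb1 and 85 for H2-Ob, and did not overlap those of the Y box. Neither set of letters was in the promoters listed for H2-DMa, and the X box letters were not in those of H2-Aa and H2-Oa. An absence says only that these exact letters are not in the window, not that the gene lacks the box. Of 32851 RefSeq promoters of the same length 7.82% held the Y box letters, 8.86% the X box letters and 0.785% both. Averaged log2 fold changes between viruses were -1.48 ± 0.28 for H2-Eb1, -1.43 ± 0.31 for H2-DMb1 and -0.65 ± 0.39 for H2-Ob, with both sets of letters. H2-Aa and H2-Oa, with the Y box letters alone, had -1.48 ± 0.29 and -2.23 ± 1.07, and H2-DMa, with neither, had -1.23 ± 0.30. In the AAV libraries H2-Ob rested on 11 to 115 counts and H2-Oa on 0 to 68. Whether the letters go with the fold changes was not tested.

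**Figure D5:**
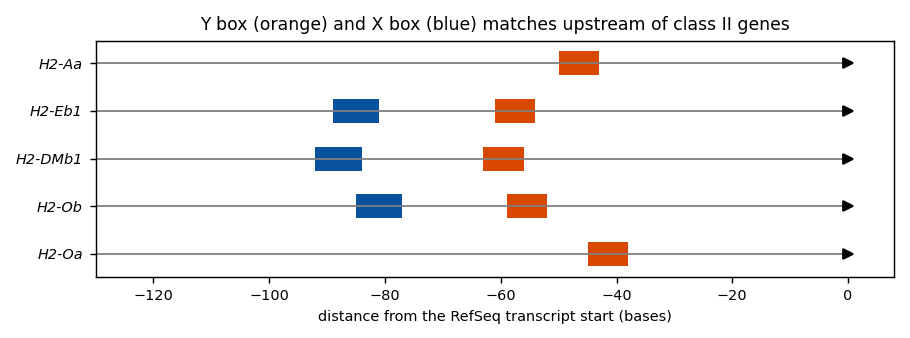
Distance of matches to the Y box and X box letters from the RefSeq start (horizontal axis, bases) in the promoters of the 5 genes with a match (vertical axis), with 1 mark per match. H2-DMa, which had no match, is not drawn. Matches to the Y box letters begin 45 to 63 bases upstream in 5 genes, and those to the X box letters 85 to 92 bases upstream in 3 of them.

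Other genes followed the pattern of the class II genes over the AAV libraries. Likeness was measured as the root mean square difference, over the 12 AAV libraries, between a gene's centred log2 CPM and the centred mean log2 CPM of H2-Aa, H2-Ab1, H2-Eb1 and Cd74. Among 12235 genes compared, the closest were Ptpn6 at 0.176, Irf8 at 0.189, Laptm5 at 0.197, Cotl1 at 0.201, Lyz2 at 0.217, Sp140 at 0.223, Cxcl16 at 0.224 and Dock2 at 0.226, while the median gene had 0.929. Over the 10 untreated libraries, which the ranking did not use, Cxcl16 ranked 4 of 12235 with a difference of 0.217, Ptpn6 167 with 0.465 and Cotl1 178 with 0.470. Irf8 ranked 197 and Laptm5 270, while Dock2, Lyz2 and Sp140 ranked 1617, 1635 and 1792. The points share their libraries and their scaling, and these values are given as a description.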

How the data were processed

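RNA from whole BAT of 22 mice was sequenced as 1 library per mouse. The authors deposited raw gene counts in 2 tables, and per the labels reads were made with bcl2fastq 2.20, trimmed with Trimmomatic 0.36 and aligned with HISAT2 to GRCm38.p6. The counting tool and its strand setting are not given in the sources used here. Of 55487 identifiers 55141 matched a GENCODE symbol, and 0 columns were left unmapped. Each cohort was fitted as a whole with edgeR 4.0.16 in R 4.3.3 (filterByExpr, TMM scaling, quasi-likelihood test, two-sided, Benjamini-Hochberg over all genes tested, called at FDR 0.05), and CPM used TMM library sizes. DESeq2 1.42.0 and limma 3.58.1 (voom with quality weights) were alternatives, with RLE scaling, a fit without the low-count filter, a replicate block, fits of the compared groups alone, leaving out libraries, and a Y-linked covariate. Totals of 55320927 to 162721202 counts per library make 3 counts worth 0.0186 to 0.0596 CPM, which covers counting error only. The common dispersion was 0.312 (untreated) and 0.0887 (AAV). Replicates with the fewest differences still differed beyond sampling noise (lowest median chi-square 4.92 over 32 pairs). Named genes were the 9 members and, of each list (regulators, processing, other class II loci, interferon gamma, costimulation, and markers of 5 cell types, with 1 further list not reported here), values for at most the 6 most abundant plus any called, and Ctss and Ifi30 were added after their values were seen. Members and lists were chosen with earlier results of these data known.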

Additional observations from a re-analysis of the deposited data

Results flagged for a closer look

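Over the 2 untreated groups of 5, each of the 9 genes was tested for a library far from its group mates, and 18 group tests gave 2 such libraries. The nominal chance rate is about 1 in 20, but several of these genes moved together in the same libraries. The tests were thus not separate, and their count cannot be set against that rate. H2-DMa stood at 6.75 CPM in untreated WT mouse 4, against 1.61 to 3.05 CPM in the other 4 WT mice. Ciita stood at 4.78 CPM in untreated KO mouse 2, against 0.692 to 1.69 CPM in the other 4 KO mice. KO mouse 2 also differed from its group mates in Y-linked transcripts, at 77.1 CPM, with 1.65 CPM of Xist. WT mouse 4 held 116 CPM of Y-linked transcripts, within the WT range of 0.206 to 193 CPM, together with 14.02 CPM of Xist. The part of these transcripts in the class II levels was not tested on single libraries.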

How the results depend on the processing

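All 476 alternative values of the 9 genes in the virus contrasts (each genotype and averaged) were negative. They are not separate tests, because the fits reuse the same libraries and some could hardly differ from the reported one. With a KO library left out, the median log2 fold change between viruses in WT was -1.3 to -1.31. With a WT library left out, that in KO was -1.64 to -1.65. The 1428 alternative values over all contrasts share libraries in the same way. Of these, 47 changed sign, 29 passed a threshold that the reported value did not and 1352 kept sign and call. Calls changed in the virus contrasts only: by DESeq2 4 in KO and 7 averaged, by RLE scaling 1 averaged (H2-Eb1, adjusted p = 0.0499), without the filter on low counts 4 averaged, at 2-fold and FDR 0.5 4 in WT, 6 in KO and 7 averaged, and with 1 library left out 0 to 7 averaged. The other alternatives gave 0 calls. The count over all genes in the averaged virus contrast was 7 by edgeR, 611 by DESeq2, 76 with RLE scaling, 144 without the filter, 8 by limma-voom and 2 with the block. By edgeR and DESeq2 it was 10 and 242 for KO against WT with AAV-GFP, 9 and 602 with AAV-PRDM16 (582 by limma-voom), 0 and 159 for the viruses in WT, 0 and 261 in KO, 1 and 152 for KO + AAV-PRDM16 against WT + AAV-GFP, and 412 and 1593 for the averaged genotypes (250 without the filter and 1281 by limma-voom). The cause was not tested.

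Same-numbered libraries had correlated deviations of -0.292 to 0.111 (untreated, 5 pairs) and -0.0912 to 0.154 (AAV, 18 pairs). Differently numbered libraries of different groups had -0.357 to 0.293 (untreated) and -0.232 to 0.211 (AAV), so the numbers showed no pairing by this measure. Whether same-numbered mice shared an origin was not tested. The replicate block changed 0 calls of the 9 genes and turned H2-Oa with AAV-GFP to -0.411. It gave medians of 1.04 (untreated) and -1.37 (viruses averaged), against 0.77 and -1.48 without it.

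Log2 fold changes that turned sign by limma-voom were -0.74 for H2-Ob untreated, -0.0577 for H2-DMa and -0.169 for Ciita with AAV-GFP, 0.0362 for H2-Oa in the averaged genotype contrast, and in the interaction 0.0159 for H2-Aa, 0.19 for H2-Ab1, 0.225 for H2-DMa, 0.306 for H2-Ob and 0.0993 for Cd74. In the 6 untreated libraries with Xist H2-Ob had -0.224. With 1 library left out, untreated values ran from -0.386 to 0.767 for H2-Ob and -0.245 to 1.09 for Ciita, both negative without KO mouse 2. KO against WT with AAV-GFP ran from -0.104 to 0.961 for H2-Ab1, -0.411 to 0.579 for H2-DMa, -1.05 to 0.557 for H2-Oa, -0.696 to 0.25 for H2-Ob and -0.784 to 0.879 for Ciita, each lowest without KO + AAV-GFP mouse 3. With AAV-PRDM16 it ran from -0.0124 to 0.201 for H2-DMa and -1.8 to 0.697 for H2-Oa. Averaged over viruses it ran from -0.175 to 0.321 for H2-DMa, -1.06 to 0.366 for H2-Oa, -0.469 to 0.0069 for H2-Ob and -0.148 to 0.686 for Ciita. The interaction ran from -0.59 to 0.278 for H2-Aa, -0.552 to 0.512 for H2-Ab1, -0.673 to 0.171 for H2-Eb1, -0.516 to 0.473 for H2-DMa, -0.596 to 0.321 for H2-DMb1, -1.83 to 0.662 for H2-Oa, -0.514 to 0.455 for H2-Ob, -0.565 to 0.403 for Cd74 and -0.387 to 1.27 for Ciita.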

Other observations

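Beyond the class II genes, the genotype contrast averaged over the viruses called genes of 3 of the fixed lists at FDR 0.05, where 2.18% of all genes were called by edgeR. Ifngr1, a chain of the interferon gamma receptor, was higher in KO than in WT, with a log2 fold change of 0.66 ± 0.11 (adjusted p = 0.0145). With AAV-GFP alone Ifngr1 had 0.39 ± 0.15, with AAV-PRDM16 alone 0.93 ± 0.15, and between untreated genotypes 0.14 ± 0.28. Of the 7 macrophage markers Csf1r (1.02, adjusted p = 0.0349), C1qb (1.14, adjusted p = 0.0497) and Mrc1 (0.88, adjusted p = 0.0264) were higher in KO by edgeR. Of the 7 brown adipocyte markers Cox7a1 (-0.64, adjusted p = 0.0145), a subunit of cytochrome c oxidase, and Cidea (-0.39, adjusted p = 0.0378), a lipid droplet protein, were lower in KO by edgeR. Between untreated genotypes these 2 had the other sign, at 0.78 ± 0.54 for Cox7a1 and 0.27 ± 0.33 for Cidea, and neither was called. Csf1r, C1qb and Mrc1 had 0.73 ± 0.55, 1.20 ± 0.56 and 0.018 ± 0.63 there, also not called.

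H2-DMb2, the neighbour and near copy of H2-DMb1, stood at 0.0719 to 0.205 of the H2-DMb1 CPM in the 10 untreated libraries. In 11 AAV libraries with counts of both genes the ratio ran from 0.0495 in WT + AAV-GFP mouse 1 to 0.301 in WT + AAV-GFP mouse 2.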
